A study of Rattus norvegicus with 18 samples.

Results

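The serotonin receptor genes Htr1a, Htr1b, Htr1d, Htr2a, Htr2c, Htr3a, Htr4, Htr5a, Htr5b and Htr7 were followed in the neocortex and in the hippocampal formation of rats deprived of, or allowed to recover, paradoxical sleep, also called rapid eye movement sleep. These 10 genes were taken by symbol from the 14218 genes that the array's annotation names singly, and 17 probe sets measured them. A probe set is a group of short oligonucleotides on the array that together read a transcript or several related transcripts. For 10 probe sets of 8 genes the mean log2 signal over all samples passed the filter on dim probe sets, at a log2 level of 4.30 or a signal of 19.7, while 7 probe sets lay under it, among them the only probe sets of Htr1b and Htr1d.

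The rats were male Sprague-Dawley animals, housed singly and implanted with electrodes for the electroencephalogram and the electromyogram, and the labels name no genetic change in any group. Control rats stayed in the home cage for the whole protocol, deprived rats were kept from paradoxical sleep for 78 h by the flowerpot method, and recovery rats had 72 h of deprivation and then 6 h in which sleep was allowed, as the sample labels give it. The design and treatment text can also be read as 6 h of recovery after 78 h of deprivation, and the sample labels were followed here. In the flowerpot method a rat stands on a small platform over water, and its muscles slacken when paradoxical sleep begins, which wakes it. No group stayed on platforms with its sleep intact, so the stay on the platforms and the loss of paradoxical sleep cannot be told apart. Each state held 12 rats in 2 sets of 6, and equal masses of RNA from the right neocortex and from the right hippocampal formation were pooled within a set. A sample is therefore a pool of 6 rats, and the 18 arrays measured 12 pools, with 2 pools per group. Set 1 was measured on 2 technical arrays per group, which were averaged. Both structures were taken from the same rats per the design text, and their pools were matched by state and set number.

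Serotonin reaches the cortex and the hippocampus through axons of the raphe nuclei in the brainstem, whose neurons fire in waking, slow down in slow wave sleep and are nearly silent in paradoxical sleep. Its receptors fall into families by their signalling. The Htr1 receptors and Htr5a act through inhibitory G proteins that lower cyclic AMP, and the Htr2 receptors act through Gq and phospholipase C. Htr4 and Htr7 raise cyclic AMP through Gs, and Htr3a forms a cation channel opened by serotonin. Htr5b is grouped with Htr5a by family, and its signalling is not assumed here.

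Promoter sequences were given for 6 of the 10 genes in RefSeq's rat assembly GRCr8, as 300 bases of which 250 lie before the start of transcription and 50 after it. Htr5b is shown because it differed between the structures, and Htr5a because it is the other receptor of that family and was not called. Htr2c is shown because the recovery pools of its brighter probe set stood above all other neocortical pools. The motifs searched on both strands were TATAAA (found in 14.2% of 33469 promoters of this length), CGTCA, the core of the cyclic AMP response element (21.2%) and the GC box GGGCGG (33.1%). Capitals mark their matches on either strand.

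Htr5b, chr13:35252537-35252836, minus strand: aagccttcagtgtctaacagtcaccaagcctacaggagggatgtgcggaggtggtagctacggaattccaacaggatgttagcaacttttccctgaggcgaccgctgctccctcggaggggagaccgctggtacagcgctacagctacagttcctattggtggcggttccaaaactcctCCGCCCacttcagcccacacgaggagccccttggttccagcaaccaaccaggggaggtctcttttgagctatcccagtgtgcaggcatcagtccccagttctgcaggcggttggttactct

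Htr5a, chr4:8188436-8188735, minus strand: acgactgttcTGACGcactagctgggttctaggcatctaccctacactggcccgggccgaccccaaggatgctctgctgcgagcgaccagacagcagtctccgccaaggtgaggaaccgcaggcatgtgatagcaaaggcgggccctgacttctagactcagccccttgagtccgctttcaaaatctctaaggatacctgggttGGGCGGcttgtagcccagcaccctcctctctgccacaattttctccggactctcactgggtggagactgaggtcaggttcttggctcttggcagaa

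Htr2c, chrX:115452940-115453239, plus strand: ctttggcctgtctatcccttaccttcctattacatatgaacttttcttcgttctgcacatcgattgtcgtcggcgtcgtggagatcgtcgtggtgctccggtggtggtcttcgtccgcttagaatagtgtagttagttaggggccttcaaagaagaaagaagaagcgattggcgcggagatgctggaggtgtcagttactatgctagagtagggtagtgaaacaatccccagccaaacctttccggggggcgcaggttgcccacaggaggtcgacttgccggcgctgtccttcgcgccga

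The Htr5b window held a single GC box, read as its reverse complement CCGCCC, which began at position -71 from the start. The Htr5a window held the CGTCA core, read as TGACG, at position -240 and a GC box at position -46. The Htr2c window held none of these letters and 22 CpG dinucleotides, against 11 for Htr5b, 12 for Htr5a and a median of 7 over all promoters. A match describes letters only and is not evidence of binding.

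Structure accounted for the widest separation of the pools, followed by the set. The first principal component of all kept probe sets carried 48.3% of the variance and placed the neocortical pools from -26.35 to -20.71, the hippocampal pools of set 2 from 0.2995 to 10.01 and those of set 1 from 37.94 to 46.57. The hippocampal pools of set 2 thus stood apart from those of set 1, so differences between the structures are also given within each set. Of 12 hippocampal principal neuron markers 10 were called higher and 1 lower in the hippocampal formation, with summed signals of 3035 to 3548 there and 1727 to 2052 in the neocortex. Of 13 neocortical principal neuron markers 6 were called lower and 1 higher in the hippocampal formation, with sums of 5021 to 5381 in the neocortex, 2786 to 2845 in hippocampal set 1 and 3618 to 3801 in hippocampal set 2, and Bcl11b was among the 5 with higher values there. The median signal of an array was 32.1 to 37.1, and most receptor signals lay near or under it. Precision is limited by how many pools there are, and in bulk tissue fewer cells of a type and less RNA per cell cannot be told apart.

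**Figure D1:**
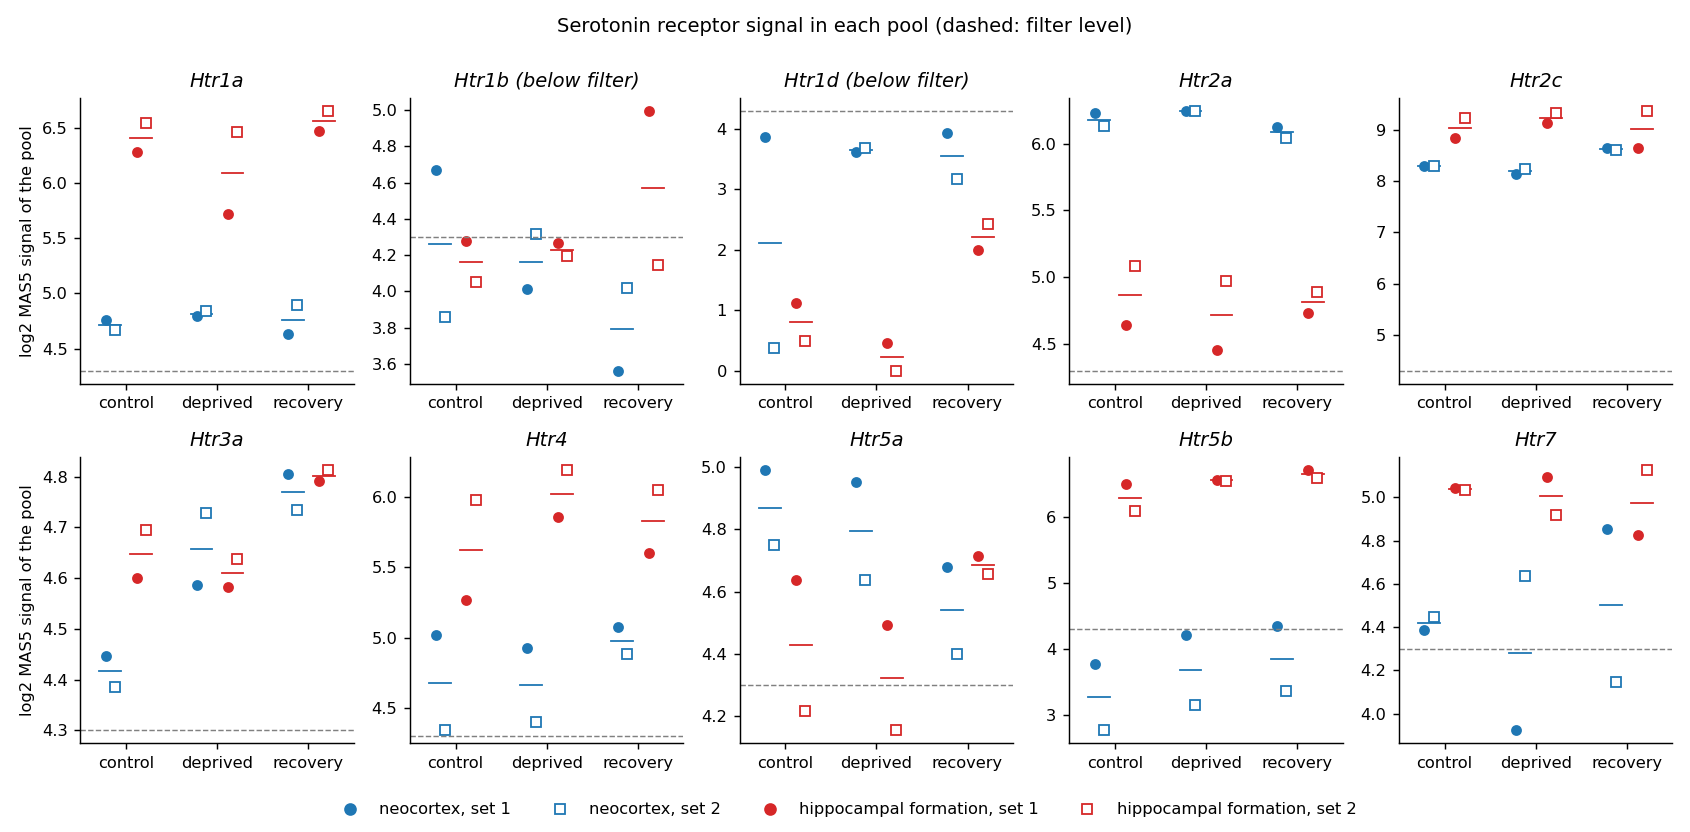
Log2 MAS5 signal (vertical axes, each with its own range) of the brightest probe set of each receptor gene in the control, deprived and recovery pools (horizontal axes), for the neocortex (blue) and the hippocampal formation (red), set 1 (filled circles) and set 2 (open squares). Short bars are the means of 2 pools and the dashed line is the filter level of 4.30; Htr5b and Htr1a stand higher and Htr2a lower in every hippocampal pool, while the sleep states overlap or lie closer together.

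Receptor levels differed between the structures, and no difference between the sleep states passed the test. In the hippocampal formation Htr5b, Htr1a, Htr4 and the brighter Htr2c probe set were higher than in the neocortex, both Htr2a probe sets passing the filter were lower, and the other 4 probe sets did not pass the test. These 6 calls of 10 probe sets, for 5 of 8 genes, stand beside 19.9% of all 18625 probe sets with an adjusted p (Benjamini-Hochberg) under 0.05. The 4 higher calls stand beside 9.40% of all probe sets and the 2 lower calls beside 10.5%. For the same 6 probe sets the 6 pools of one structure did not overlap with the 6 of the other, which held for 13.5% of all probe sets. With the set as a replicate block, 7 of the 10 were called, beside 43.0% of all. All 10 differences had the same sign in set 1 as in set 2. Htr5b is among the 6 calls, the 4 higher calls and the 7 calls with the block. It passed the filter only through its hippocampal pools, so its part in these counts is not independent of the filter.

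Htr5b, of the Htr5 family, was higher in the hippocampal formation, and it passed the filter only through its hippocampal pools. Its neocortical signal was 13.6 and 6.80 in the control pools of sets 1 and 2, 18.6 and 8.90 in the deprived pools, and 20.2 and 10.3 in the recovery pools. Hippocampal signals were 89.8 and 68.1 in control, 94.1 and 93.3 in deprived and 104 and 96.1 in recovery pools. Every hippocampal pool was above every neocortical one, and 5 of the 6 neocortical pools lay under the filter level. The mean log2 signal was 6.50 ± 0.211 in the hippocampal formation and 3.60 ± 0.617 in the neocortex (SD, n = 6 pools; limma adjusted p = 0.000154). The hippocampal pools brought this probe set into the test, so its p-value is not separate support for the difference. Because the neocortical mean was below the filter, the size is given only as a bound, a mean hippocampal signal 4.58 times the filter level. The estimated log2 difference moved with the handling of low signals, from 2.89 with a floor of 1 to 2.40 with a floor of 16 and 1.89 after 16 was added to each signal, and was called each time. Htr5b codes for a receptor whose protein is made in rodents, while the human gene has lost its coding function.

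Htr1a, the inhibitory receptor found on the cell bodies and dendrites of raphe and of cortical and hippocampal neurons, was 3.01-fold higher in the hippocampal formation. In the neocortex its signal was 27.2 and 25.5 in control, 27.8 and 28.6 in deprived and 24.8 and 29.8 in recovery pools. Hippocampal signals were 77.6 and 93.1 in control, 52.6 and 88.4 in deprived and 88.9 and 101 in recovery pools. The structures did not overlap, and the set 1 deprived pool was the lowest of the hippocampal pools. The log2 difference was 1.59 (SE 0.120, adjusted p = 0.000258), with 1.43 in set 1 and 1.75 in set 2.

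Htr5a, the other receptor of the Htr5 family, lay slightly on the neocortical side without passing the test. Its signal was 31.8 and 26.9 in control, 31 and 24.9 in deprived and 25.6 and 21.1 in recovery neocortex, against 24.9 and 18.6, 22.5 and 17.8, and 26.2 and 25.2 in the hippocampal pools of the same states. The ranges overlapped, both recovery pools were higher in the hippocampal formation, and the log2 difference was -0.26 (95% interval -0.54 to 0.03, adjusted p = 0.173).

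Htr1b and Htr1d, receptors known from axon terminals where they hold back transmitter release, had mean log2 signals of 4.20 and 2.09 over the 12 pools and were not tested. The Htr1b signal ran from 11.8 to 25.5 in the neocortical and from 16.6 to 31.9 in the hippocampal pools, which overlapped. Htr1d ran from 1.30 to 15.3 in the neocortex and from 1 to 5.40 in the hippocampal formation, and 2 of 18 arrays were at or under the floor of 1. Htr1b was above the filter signal of 19.7 in 3 of 12 pools (25.5 and 19.9 in the neocortex and 31.9 in the hippocampal formation) and Htr1d in 0 of 12, which does not show that Htr1d was absent.

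Of the Gq-coupled receptors, Htr2a was 2.59-fold lower in the hippocampal formation by its brighter probe set. That signal was 74.9 and 70.1 in control, 75.8 and 75.9 in deprived and 69.9 and 65.8 in recovery neocortex. In the hippocampal pools it was 25.0 and 33.9, 21.9 and 31.4, and 26.6 and 29.7 in the same order. Htr2a is known from the apical dendrites of neocortical pyramidal neurons, and here every neocortical pool was above every hippocampal one. The log2 difference was -1.37 (SE 0.120, adjusted p = 0.000481), with -1.59 in set 1 and -1.16 in set 2. A second Htr2a probe set gave -0.79 (SE 0.120, adjusted p = 0.00499), with 36.2 to 43.6 in the neocortical and 19.5 to 26.4 in the hippocampal pools. The remaining Htr2a probe sets were under the filter, with differences of -0.32 and 0.08, and the dimmer was at or under a signal of 1 on 12 of 18 arrays.

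Htr2c, which is known from principal neurons, interneurons and in very large amounts from the epithelium of the choroid plexus, was 1.64-fold higher in the hippocampal formation by its brighter probe set. The signal was 314 and 315 in control, 283 and 302 in deprived and 402 and 390 in recovery neocortex. It was 455 and 598 in control, 561 and 639 in deprived and 402 and 661 in recovery hippocampal formation. Every hippocampal pool was above every neocortical one, although the set 1 recovery pools of both structures were nearly equal, at 402. The log2 difference was 0.72 (SE 0.104, adjusted p = 0.00415), with 0.51 in set 1 and 0.92 in set 2. The second Htr2c probe set gave a difference of 0.33 (95% interval -0.12 to 0.78, adjusted p = 0.252), with 35.8 to 50.5 in the neocortical and 31.9 to 73.1 in the hippocampal pools, which overlapped.

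Among the receptors that raise cyclic AMP, Htr4 was 2.07-fold higher in the hippocampal formation. Its signal was 32.4 and 20.3 in control, 30.5 and 21.1 in deprived and 33.8 and 29.5 in recovery neocortex. Hippocampal values were 38.5 and 63.1 in control, 57.9 and 73.0 in deprived and 48.6 and 66.4 in recovery pools. All hippocampal pools were higher, but the difference was far wider in set 2 (1.53) than in set 1 (0.57), with a log2 estimate of 1.05 (SE 0.211, adjusted p = 0.0148). Without set 2 of the deprived rats the estimate was 0.91 (adjusted p = 0.0583) and without set 2 of the recovery rats 0.94 (adjusted p = 0.0522), so the call ended in both cases. The dim second Htr4 probe set, which was not tested, was higher in the hippocampal formation in 6 of 6 animal pools.

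Htr7, a Gs-coupled receptor known from thalamus and hippocampus, had a log2 difference of 0.61 (95% interval 0.17 to 1.04) that narrowly missed the threshold (adjusted p = 0.0590). The signal was 20.9 and 21.8 in control, 15.2 and 24.9 in deprived and 28.9 and 17.7 in recovery neocortex. It was 33.0 and 32.8, 34.1 and 30.2, and 28.3 and 34.9 in the hippocampal pools. The structures overlapped through the set 1 recovery pools alone, and 5 of 6 animal pools were higher in the hippocampal formation. With the replicate block of sets Htr7 was called (adjusted p = 0.0128).

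Htr3a, the channel subunit that in cortex marks a class of interneurons, had nearly equal signals in both structures. The neocortical signal was 21.8 and 20.9 in control, 24.0 and 26.5 in deprived and 27.9 and 26.6 in recovery pools. The hippocampal signal was 24.2 and 25.9, 23.9 and 24.9, and 27.7 and 28.1 in the same order. The log2 difference was 0.07 (95% interval -0.20 to 0.35, adjusted p = 0.684), and summed interneuron markers were 7077 to 7609 in the neocortex and 6461 to 6864 in the hippocampal formation. Of 17 interneuron markers 3 were called higher and 7 lower in the hippocampal formation, beside 9.40% and 10.5% of all probe sets.

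**Figure D2:**
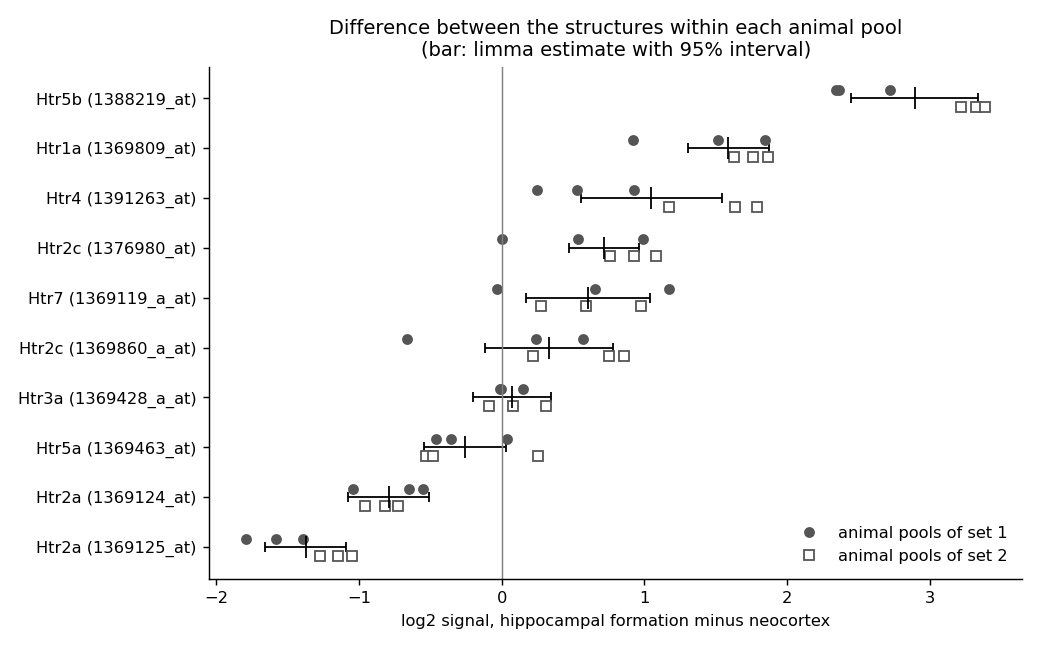
Log2 signal in the hippocampal formation minus that in the neocortex (horizontal axis) for the 10 receptor probe sets that passed the filter (vertical axis), with a point for each of the 6 animal pools (set 1 filled, set 2 open) and a bar for limma's estimate with its 95% interval. Htr1a at 1.59 and all points of Htr5b lie on the hippocampal side and Htr2a at -1.37 on the neocortical side; the place of Htr5b rests on neocortical signals under the filter level, so its size is not settled.

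The comparison of sleep states asked whether receptor transcripts followed the loss and the return of paradoxical sleep. In none of the 3 comparisons in either structure was a receptor probe set called, and 0% of all 18625 probe sets were called as well. With the replicate block 0 receptor probe sets were called. Of all probe sets, 2 were then called for deprived against control neocortex, 1 for recovery against deprived neocortex and 0 in the other comparisons. At an unadjusted p under 0.05 limma gave 0 of the 10 receptor probe sets in each of the 6 comparisons, and 169 to 301 of all probe sets. That is 0.907% to 1.62% of all, fewer than the threshold alone would give. This fit leaves the set out and can miss differences. With the replicate block, limma gave 0 to 2 receptor probe sets and 849 to 1363 of all at an unadjusted p under 0.05. The receptor differences ran from -0.33 to 0.59 in recovery against control neocortex, and from -0.32 to 0.40 in deprived against control hippocampal formation. The 95% intervals reached as far as 0.974 on either side of an estimate on the log2 scale for the most variable probe set, Htr5b. Comparisons within a structure share pools, so they are not independent of each other.

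Counting only pools that did not overlap, which 2 pools a group can give easily, 5 of the 10 receptor probe sets separated deprived from control neocortex, beside 24.5% of all probe sets. It was 6 for recovery against control (24.0% of all) and 3 for recovery against deprivation (23.4%) in the neocortex. In the hippocampal formation it was 1 (19.3%), 3 (19.9%) and 4 (23.2%) in the same order. These counts include genes with more than one probe set.

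Htr2c had its highest neocortical values in the recovery pools, without passing the test. The recovery pools, at 402 and 390, were above the other 4 neocortical pools, which lay at 283 to 315. Recovery exceeded deprivation by a log2 difference of 0.44 (SE 0.208, 95% interval -0.03 to 0.90, limma adjusted p = 1), with 0.51 in set 1 and 0.37 in set 2, and control by 0.33, with 0.35 and 0.31. With the replicate block the unadjusted p was 0.00121 for recovery against deprivation and the adjusted p 0.782, so it was not called. The dimmer Htr2c probe set gave 0.48 in set 1 and -0.02 in set 2 for recovery against deprivation. In the hippocampal formation the brighter probe set gave -0.48 in set 1 and 0.05 in set 2 in the same comparison, which was not called. The difference between the structures in this contrast was -0.65 (SE 0.255, 95% interval -1.26 to -0.05, adjusted p = 1). In the limma fit without the set it was the only receptor interaction with an unadjusted p under 0.05 (0.0368). Without set 1 of the recovery rats the estimate was -0.27 and without set 2 of them -1.03. With the replicate block the unadjusted limma p of this interaction was 0.000567 and the adjusted p 0.383, so it was not called. The block also gave the brighter Htr2c probe set unadjusted p-values of 0.0488 in the interaction of deprivation against control and 0.0275 in that of recovery against control. All 3 interactions had 0 calls among the receptors and 0% among all probe sets. With the replicate block 2 of all probe sets and 0 receptor probe sets were called in the interaction of recovery against deprivation.

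**Figure D3:**
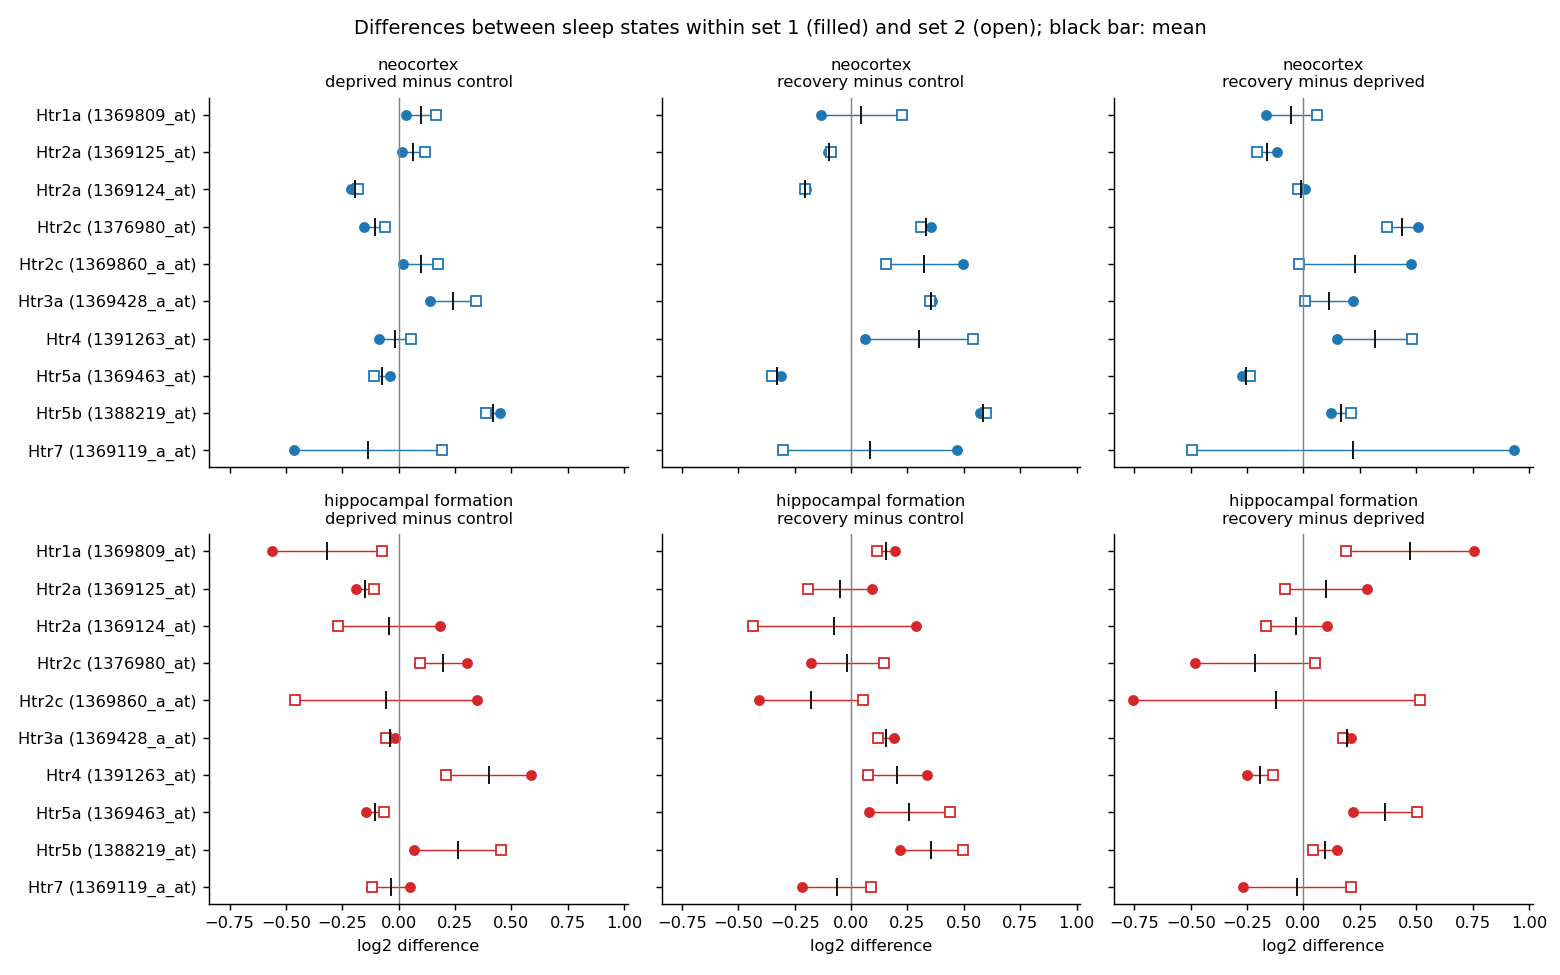
Log2 differences (horizontal axes) of the 10 receptor probe sets (vertical axes) between sleep states, one panel for each structure and comparison, with set 1 as a filled circle, set 2 as an open square and their mean as a black bar. In the neocortex the points of the brighter Htr2c probe set, Htr3a and Htr5a lie close together for recovery against control, at 0.35 and 0.31, 0.36 and 0.35, and -0.31 and -0.35. Those of the dimmer Htr2c probe set lie farther apart, at 0.49 and 0.15, and none of the differences was called.

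In the neocortex Htr3a was also higher in both recovery pools than in both control pools, by 0.36 in set 1 and 0.35 in set 2 (log2 estimate 0.35, SE 0.180, adjusted p = 1), and Htr5a was lower, by -0.31 and -0.35 (estimate -0.33, SE 0.241, adjusted p = 1). Htr5b gave 0.57 and 0.60 in the same comparison (estimate 0.59, SE 0.436), at signals mostly under the filter level. With the replicate block its SE was 0.175 (limma adjusted p = 0.767). Deprivation against control gave 0.24 for Htr3a, -0.20 for the second Htr2a probe set and 0.42 for Htr5b, the last with overlapping pools. The brighter Htr2a probe set gave 0.07, the opposite sign, and the Htr5b value was 0.11 with a floor of 16. For recovery against deprivation the values next to Htr2c were -0.26 for Htr5a and 0.32 for Htr4, with overlapping pools.

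In the hippocampal formation Htr1a had the widest difference of the 10 probe sets, 0.47 for recovery against deprivation (SE 0.236, adjusted p = 1), with 0.76 in set 1 and 0.19 in set 2. It rested largely on the set 1 deprived pool of 52.6, and without that pool the estimate was 0.10. Deprivation against control gave -0.32 for Htr1a, 0.40 for Htr4 and 0.20 for Htr2c, all with overlapping pools. Without control set 1 the Htr4 value was 0.0428 and the Htr2c value 0.000521, and without control set 2 they were 0.75 and 0.39. For recovery against control Htr5a gave 0.26, Htr3a 0.15 and Htr5b 0.36, with pools that did not overlap. For recovery against deprivation Htr5a gave 0.36 and Htr3a 0.19, so that Htr5a was higher in the hippocampal and lower in the neocortical recovery pools. The test of that difference between the structures gave 0.62 (SE 0.297, adjusted p = 1) against deprivation and 0.59 (SE 0.297, adjusted p = 1) against control. The remaining interactions with the smallest p of the receptors were -0.42 for Htr1a, 0.31 for Htr2c and -0.28 for Htr3a in deprivation against control, -0.35 and -0.50 for the Htr2c probe sets in recovery against control, and 0.53 for Htr1a in recovery against deprivation, none of them called.

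The choroid plexus, which makes the cerebrospinal fluid, is where Htr2c is most abundant, and its markers varied widely between pools. Of 13 listed markers, 5 passed the filter, and their summed signal was 1974 and 187 in control, 1681 and 581 in deprived and 2328 and 828 in recovery neocortex. It was 2935 and 1367 in control, 4973 and 522 in deprived and 1258 and 411 in recovery hippocampal formation. Most of it was Ttr, the carrier of thyroid hormone, which ran from 114 to 4387. Set 1 was higher than set 2 in every group, while the brighter Htr2c probe set was higher in set 2 in every hippocampal group. Within set 1 the states had the same order by marker sum as by the signal of the brighter Htr2c probe set, in both structures. Within set 2 they did not in either structure. In the interaction of recovery against deprivation all 5 markers were negative (median -1.59), as Htr2c was, and 0 were called. In the control neocortex the marker sum was 1974 in set 1 and 187 in set 2 and the Htr2c signal was 314 and 315. Within the neocortex the recovery pools had the highest marker sum of their set, as they had the highest signal of the brighter Htr2c probe set. The part of the choroid plexus in these Htr2c differences was not tested.

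**Figure D4:**
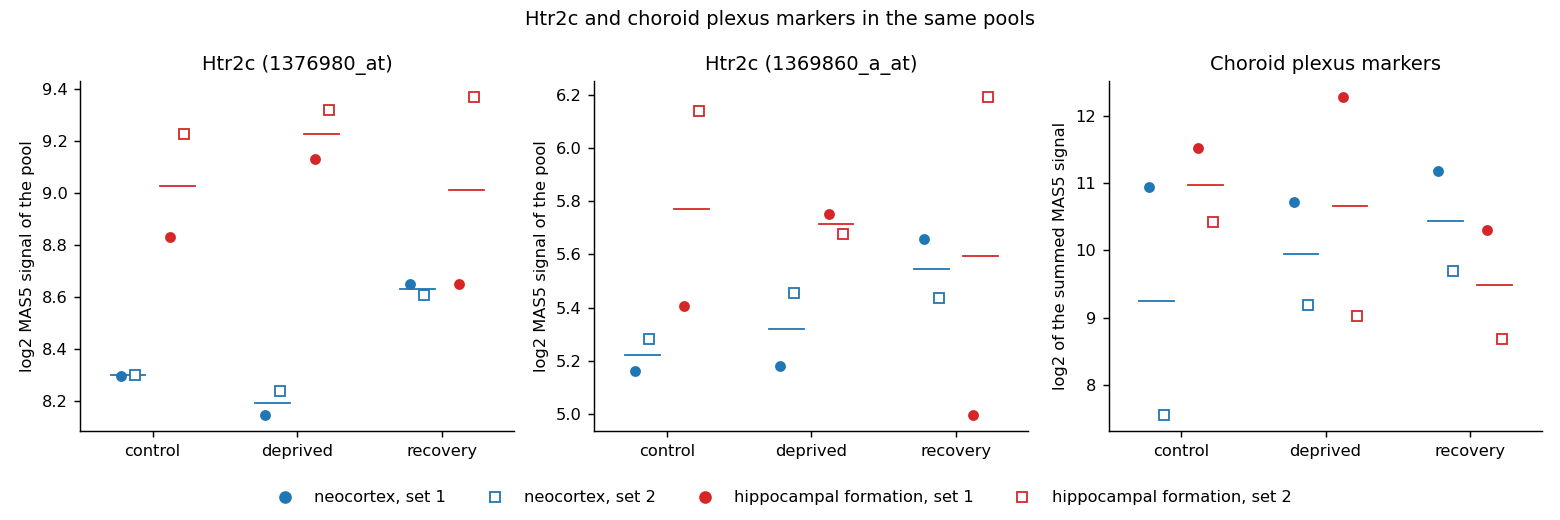
Log2 MAS5 signal of both Htr2c probe sets (left and middle vertical axes) and log2 of the summed MAS5 signal of 5 choroid plexus markers (right vertical axis) in the control, deprived and recovery pools (horizontal axes), with the neocortex in blue, the hippocampal formation in red, set 1 filled, set 2 open and bars for the mean of 2 pools. The control neocortical pools have equal Htr2c levels of 8.30 and marker sums of 1974 and 187.

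The spread between pools had a part from the arrays themselves. For the brighter Htr2c probe set the median log2 distance between technical arrays of a group was 0.06 and between the sets 0.14, and for Htr3a 0.05 and 0.07. For Htr5b the distances were 0.27 and 0.69, for Htr1a 0.27 and 0.22, and for Htr7 0.40 and 0.24. In 6 of the 10 probe sets that passed the filter the technical distance was the larger. Genes with several probe sets were not always of one sign: of the 4 Htr2a probe sets 3 were lower in the hippocampal formation, of the 3 Htr7 probe sets 2 were higher, and both Htr2c and both Htr4 probe sets were higher.

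The genes that make, carry and break down serotonin were next. Of 16 listed, 12 were on the array by symbol and 7 passed the filter, and in the hippocampal formation 3 were higher than in the neocortex, 0 were lower and 4 did not pass, beside 9.40% of all probe sets called higher and 10.5% lower. With the replicate block 4 of the 7 were called, beside 43.0% of all. The higher ones in the fit without it were Maob (0.31, adjusted p = 0.00683) and Maoa (0.25, adjusted p = 0.0182), the monoamine oxidases, and Pts (0.28, adjusted p = 0.0463), an enzyme of tetrahydrobiopterin synthesis, which serotonin synthesis needs. The median log2 difference of the 7 genes was 0.15, beside -0.01 over all probe sets. Tph1 and Tph2, the enzymes that commit tryptophan to serotonin, were not analysed here. The serotonin transporter gene Slc6a4 (1.20 to 12.1) and Fev, a transcription factor of serotonergic neurons (4.20 to 16.7), lay under the filter level of 19.7 in all 12 pools. Of the 6 listed markers of serotonergic neurons only Slc18a2, the vesicular monoamine transporter, passed, at 16.2 to 28.1.

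Among the G proteins and effectors that the receptors use, 28 were listed, 25 were on the array and 24 passed, of which 2 were higher in the hippocampal formation, 8 were lower and 14 did not pass, beside the same 9.40% and 10.5% of all probe sets. With the replicate block 18 of the 24 were called, beside 43.0% of all. Plcb4, a phospholipase C that Gq activates, was lowest against the neocortex (-1.64, adjusted p = 5.3e-05), followed by Adcy5, an adenylyl cyclase (-0.91, adjusted p = 0.000879). Prkca, a protein kinase C (0.78, adjusted p = 0.000959), and Kcnj6, a potassium channel subunit that inhibitory G proteins open (0.69, adjusted p = 0.000969), were higher. The median was -0.13. Adcy5 and Gnal, which was also called lower (-0.48), are abundant in the striatum. Summed striatal markers, among them Adcy5 itself, were 2012 to 2609 in the neocortical and 813 to 1061 in the hippocampal pools. The part of striatal tissue in these differences was not tested.

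Of 21 listed proteins that bind or desensitise the receptors, 17 were on the array and passed, 2 higher and 5 lower in the hippocampal formation and 10 not past the test, beside 9.40% and 10.5% of all probe sets, with a median of -0.06. With the replicate block 8 of the 17 were called, beside 43.0% of all. Rgs4, which speeds the switching off of inhibitory G proteins, was lower (-1.44, adjusted p = 0.000963), as were the kinase gene Rps6ka3 (-0.56, adjusted p = 0.00155) and Rgs7 (-0.36, adjusted p = 0.00415). Rgs14, known from hippocampal field CA2, was higher (0.61, adjusted p = 0.00126). The other serotonin receptor genes Htr1f, Htr2b, Htr3b and Htr6 were on the array, 0 of 4 passed the filter, and their mean log2 signals were 3.15, 1.44, 1.93 and 1.70.

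**Figure D5:**
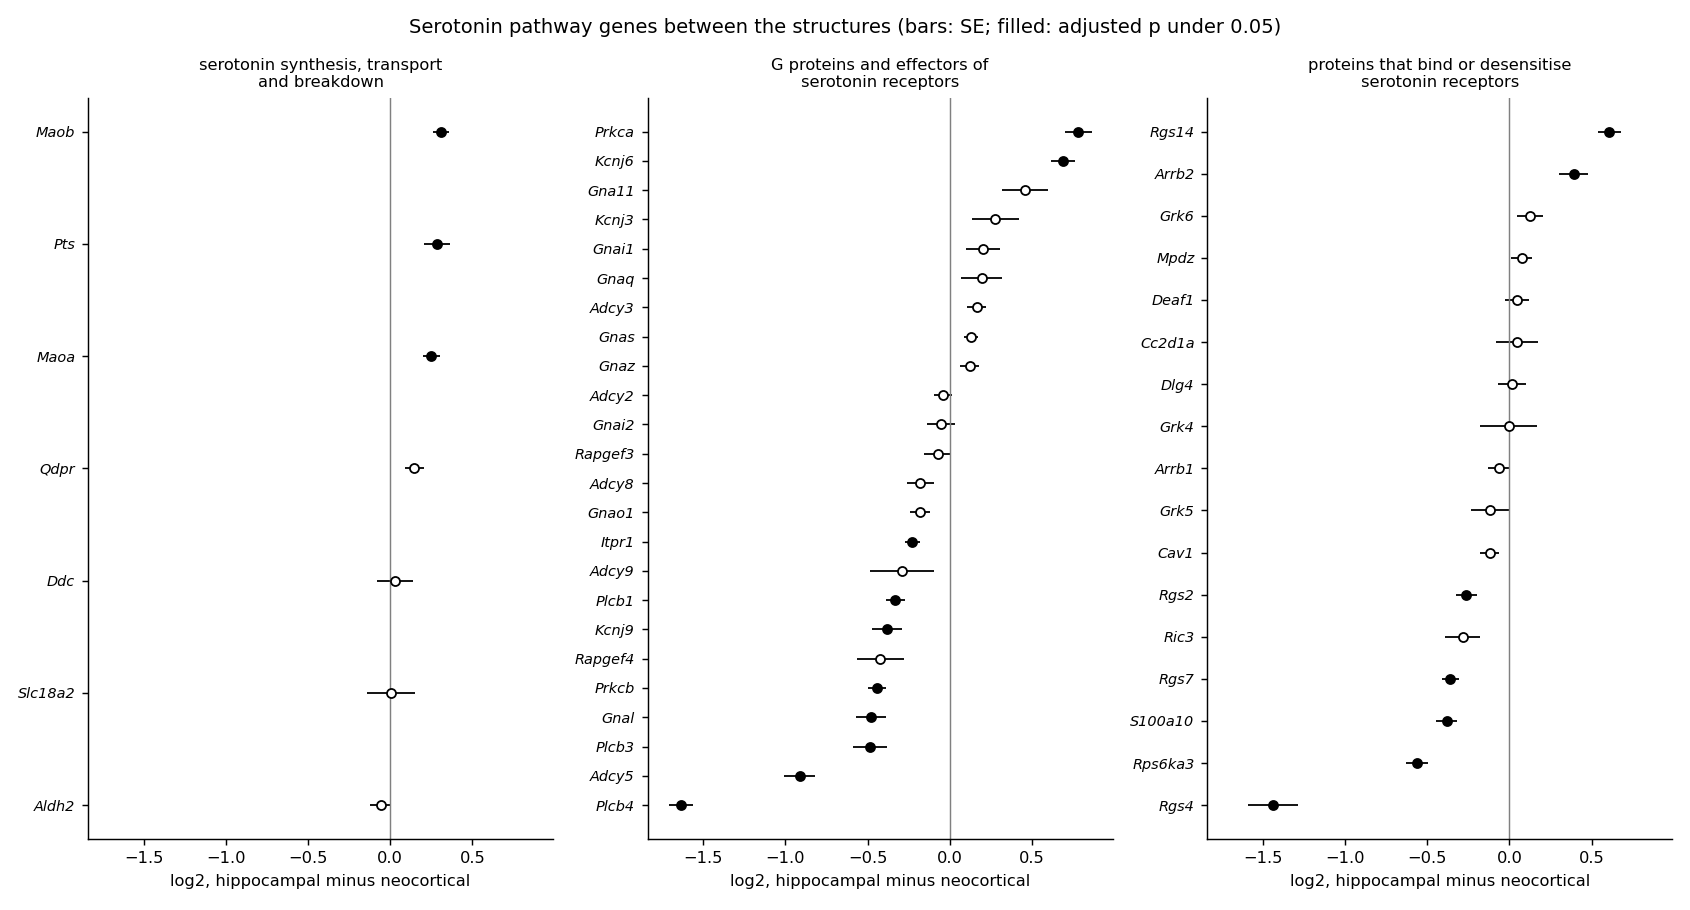
Log2 signal in the hippocampal formation minus that in the neocortex (horizontal axes) for genes of 3 serotonin pathway lists (vertical axes), with bars for the SE over 6 animal pools and filled points for an adjusted p under 0.05. Plcb4 at -1.64 and Rgs4 at -1.44 lie farthest to the neocortical side and Prkca at 0.78 farthest to the hippocampal side.

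Between the sleep states 0 genes of these lists were called in any of the 6 comparisons or the 3 interactions. Rgs2, which switches off Gq and was lower in the hippocampal formation (-0.26, adjusted p = 0.0287), gave 0.28 for recovery against control and 0.25 against deprivation in the neocortex. It gave 0.26 and 0.25 in the hippocampal formation, each with an SE of 0.117 and an adjusted p of 1. The serotonin synthesis gene with the smallest p was Pts in deprived against control hippocampal formation (-0.63, SE 0.231, adjusted p = 1), and the smallest among the G proteins in deprived against control neocortex was Gnal (0.50, SE 0.205, adjusted p = 1).

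The genes whose log2 signal ran most like a receptor's over the 12 pools were taken from 10293 genes by Pearson correlation, as a description with no test, since the pools share rats and structure. For Htr5b they were Fibcd1 (r = 0.992), Pkp2 (0.990) and Kcng2 (0.986), of which Fibcd1 and Pkp2 are markers of hippocampal principal neurons. For Htr1a they were Pcdh19 (0.977), St6galnac5 (0.977) and Maob (0.970). For Htr2a they were Vip (0.990), the peptide of a class of interneurons, Neu2 (0.989) and Pdzrn3 (0.987). The means of all of these lay on the same side between the structures as the receptor's, which a choice by correlation over both structures favours. For Htr2c they were Gpc4 (0.959), Sertm1 (0.944) and Rsph9 (0.930), and for Htr4 Rab38 (0.956), Prrt1 (0.942) and Tubb2b (0.937). Htr7 ran with Znf48 (0.929), G0s2 (0.911) and Erh (0.885), Htr5a with Patl1 (0.868), Ralb (0.859) and Cmtm7 (0.859), and Htr3a with Asmtl (0.816), Irs2 (0.806) and Timm50 (0.804).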

How the data were processed

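Biotin-labelled cRNA from RNA pools of 6 rats was hybridised to Affymetrix rat arrays, per the labels' protocols. The authors deposited one linear intensity per probe set and array, made with MAS5 per the submitters' processing notes. Its version, scaling target and detection calls are not given in the sources used here, so no probe set could be called present or absent.

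Signals were raised to a floor of 1 and log2-transformed, with no further normalization. The 57 control probe sets were left out, the 2 technical arrays of set 1 averaged, and the lowest 40% of 31042 probe sets by mean left out, which kept 18625. Names come from GEO's platform annotation: 20832 probe sets had 1 symbol, 436 several and 9831 none, and only the first were named. A probe set under the filter was described and not tested. limma 3.58.1 (R 4.3.3; lmFit, eBayes with an intensity trend) was fitted to all kept probe sets, with Benjamini-Hochberg adjustment over all of them at 0.05. The states were tested in a means model of the 6 groups on 12 pools (6 residual degrees of freedom), and the structures and interactions on the hippocampal minus neocortical differences of the 6 animal pools (3 residual). The method was also run on simulated data with independent noise in each pool and no effect of the set. Such data cannot show how the state test behaves where pools of a set vary together.

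The correlation of same-numbered pools, as deviations from group means, was 0.539 to 0.682 in pairs of one structure and 0.182 to 0.387 in pairs across structures. The set number was therefore used as a block. This comes from the data, since the labels do not say that sets shared a day or litter. The 9 pairs across structures include pools of different states, so these correlations cannot show which pools shared rats. The matching of the structures rests on the design text and the set number. The set as a replicate block in each structure (4 residual degrees of freedom) is given where it changes a count of calls for the receptors, the pathway lists or all probe sets. It is not given for the marker lists.

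Each receptor gene was described by its brightest probe set, with every other probe set by range or difference. State differences were named for the 3 receptor probe sets of smallest p in a comparison, and for a pathway list up to 4 called genes by smallest p or the gene of smallest p; Gnal, Rgs2 and the marker genes were chosen after their values were seen. Other marker lists (astrocytes, oligodendrocytes, microglia, meninges, thalamic and habenular neurons) were summed per pool. The members and lists were chosen with earlier results of these data known. Alternatives were another floor, pseudocount, filter and normalization, no intensity trend, single technical arrays, the block, unpaired pools and each pool left out. Promoters are RefSeq's, assembly GRCr8; receptor protein sequences were not used here.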

Additional observations from a re-analysis of the deposited data

How the results depend on the processing

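The count of receptor probe sets called between the structures was 6, and 5 to 7 over 16 alternatives; for the states and interactions it was 0 under each of 13 or 14 alternatives per comparison. Over all probe sets, 3700 calls between the structures became 8006 with the replicate block and 1632 to 4516 when the rats of 1 pool were left out. Of the single receptor results, 546 of 557 alternatives were rated the same. Where a test was run, this meant the same direction and the same side of the threshold. The values of set 1 or set 2 alone had no test. For them it meant the same direction and a distance from the main estimate under the SD of the animal-pool differences. Htr7 passed between the structures with a floor of 16 (adjusted p = 0.0490), quantile normalization (0.0383), the replicate block (0.0128) and unpaired pools (0.0376), and Htr4 lost its call without set 2 of the deprived or of the recovery rats. Leaving out 1 pool turned the sign of 4 uncalled differences, whose ranges were -0.11 to 0.95 for Htr5b in deprived against control neocortex (negative without deprived set 1, -0.11, and without control set 2, -0.08), -0.69 to 0.0566 for Htr1a in deprived against control hippocampal formation, and, for the interaction of recovery against control, -0.73 to 0.0307 for the brighter and -1.21 to 0.21 for the dimmer Htr2c probe set. The cause was not tested. Dim signals limit what can be said of Htr1b, Htr1d, Htr7 and neocortical Htr5b, and 2 pools a group limit the states.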

Other observations

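Of the marker lists not used above, summed signals overlapped between the structures for microglia (906 to 1452 in the neocortical and 964 to 1172 in the hippocampal pools) and for oligodendrocytes (10373 to 12428 and 11049 to 15669). Meningeal and fibroblast markers were 1101 to 1498 in the neocortex and 625 to 1067 in the hippocampal formation, and astrocyte markers 10291 to 12246 and 12362 to 13444. Thalamic and habenular markers, 6 of 11 past the filter, were 452 to 472 in the neocortex and 430 to 490 in the hippocampal formation, with neither structure above the other.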
